A study of Rattus norvegicus with 24 samples.

Results

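Mc4r (ENSRNOG00000018692), the melanocortin 4 receptor, and Gpr61 (ENSRNOG00000019738), an orphan G protein-coupled receptor, were followed across strain and side in the carotid body (CB), the chemosensory organ at the fork of the carotid artery. They were picked by identifier as 2 receptors tied to energy balance, out of 32623 genes in the count table, and the difference between the strains was known when they were picked. Levels and fold changes between the strains are therefore a description without a test, and tests are given only for side, for the difference of the side effect between strains and for relations within a strain. Poly-A RNA was sequenced from the left and the right CB of 6 Wistar-Kyoto rats (WKY/NHsd, normotensive) and 6 spontaneously hypertensive rats (SHR/NHsd), all male and 12 to 14 weeks old, which gave 24 libraries in 4 groups. No animal carried a transgene or received a treatment according to the labels. SHR and WKY are separate inbred strains, so hypertension and every other difference between the strains cannot be told apart. Whole CBs were dissected, and in bulk tissue fewer cells of a type and less RNA per cell cannot be told apart.

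The melanocortin 4 receptor couples to Gs and raises cAMP. Its agonists are melanocortin peptides such as alpha-MSH, which are cut from the precursor Pomc, and agouti-related peptide (Agrp) opposes them. In the hypothalamus and in autonomic neurons the receptor limits food intake, raises energy expenditure and increases sympathetic outflow. Gpr61 has no settled ligand, signals through Gs without one in cell assays, and its loss in mice goes with overeating and obesity. The glomus cells of the CB are its oxygen sensors. They release transmitters onto the carotid sinus nerve, which drives breathing and sympathetic activity.

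The promoters of both genes are printed because both genes differed in level between the strains and each sequence shows what lies just upstream of the annotated start. Both are the 250 bases before the start in the RefSeq annotation of GRCr8, in gene orientation, and both genes lie on the minus strand. Mc4r spans chr18:62691686-62691935 in this window and Gpr61 spans chr2:198477762-198478011. Capitals mark letters that match one of 6 motifs searched on both strands.
Mc4r promoter: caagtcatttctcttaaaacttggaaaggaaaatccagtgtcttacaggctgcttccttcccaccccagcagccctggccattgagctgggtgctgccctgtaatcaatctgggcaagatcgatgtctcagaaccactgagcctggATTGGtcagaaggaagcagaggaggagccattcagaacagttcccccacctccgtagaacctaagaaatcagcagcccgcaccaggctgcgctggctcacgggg
Gpr61 promoter: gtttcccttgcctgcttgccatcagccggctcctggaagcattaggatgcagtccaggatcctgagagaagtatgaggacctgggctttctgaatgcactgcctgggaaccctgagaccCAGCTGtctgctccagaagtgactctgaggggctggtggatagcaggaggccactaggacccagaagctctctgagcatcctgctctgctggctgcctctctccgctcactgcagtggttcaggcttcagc
The motifs were TGACG (the core of the cAMP response element), ACGTG (the hypoxia response core), the TATA box (TATAAA), the CCAAT box, the GC box (GGGCGG) and the E-box (CANNTG). In Mc4r 1 match was found, the reverse complement of CCAAT, 104 to 100 bases before the start, and 34.02% of 33469 promoters of the same length hold a CCAAT match. In Gpr61 1 match was found, an E-box 131 to 126 bases before the start, and 65.5% of promoters hold an E-box. No match overlapped another. The core of the cAMP response element (in 18.2% of promoters), the hypoxia response core (16.6%), the TATA box (12.9%) and the GC box (30.5%) were not found in either window, which says only that these letters are not in these 250 bases. GC content was 54.4% for Mc4r and 58.4% for Gpr61, with a median of 51.2% over all promoters.

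The libraries held 9198341 to 13655419 counts. The right CB of SHR34 stood apart from the other libraries. It held 10450867 counts, of which 0 fell on Mc4r and 0 on Gpr61, and a count of 0 allows a level of up to 0.377 CPM. The 5 glomus cell markers that were paired with an identifier (Chga, Chgb, Dbh, Gata3 and Ret, of 16 used) summed to 78.6 CPM there, against 1753 CPM in the left CB of the same rat and 1183 to 2081 CPM over the SHR libraries. Tg (thyroglobulin, the hormone precursor of the thyroid) stood at 7962 CPM, against at most 219 CPM in any other library, and the 4 paired adipocyte markers summed to 440 CPM against at most 120 CPM. None of the 5 paired glomus cell markers was at 0 in it. The authors' own result table leaves this library out, and the values below rest on the other 23 unless all 24 are named. Among these, all 5 paired glomus cell markers were detected, and 253 pairs of libraries differed beyond counting noise (lowest chi-square per degree of freedom 4.97), so none was counted as a repeat.

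Mc4r was low in every WKY library and high in every SHR library kept. Levels are CPM, counts scaled to a common library total, after TMM normalization, which scales each library by its effective depth. They are not divided by transcript length, so the levels of Mc4r and Gpr61 are not compared with each other. Across the 6 WKY left CBs, Mc4r ran from 1.76 to 3.11 CPM with a median of 2.50 CPM, from 18 to 35 counts a library. Across the 6 WKY right CBs it ran from 1.42 to 4.22 CPM with a median of 2.43 CPM, from 16 to 40 counts. The sides overlapped almost wholly in WKY.

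In the 6 SHR left CBs, Mc4r ran from 11.1 to 21.7 CPM with a median of 16.3 CPM, from 104 to 236 counts. In the 5 SHR right CBs, it stood at 14.5 CPM in rat 30, 11.7 CPM in rat 31, 12.3 CPM in rat 33, 22.01 CPM in rat 36 and 7.56 CPM in rat 37. The left CB of SHR34, the rat whose right CB had no Mc4r count, held 185 counts and 20.8 CPM. All 11 SHR libraries lay above all 12 WKY libraries. That separation in every library was seen in 130 of 14243 genes tested (0.913%), and nothing is read from it for Mc4r, which was picked with this difference known.

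**Figure D1:**
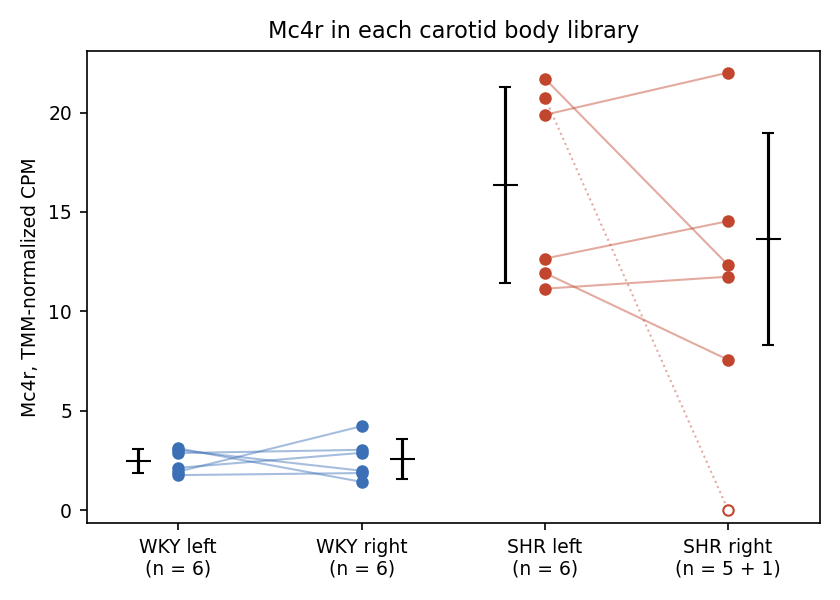
Mc4r in each library, as TMM-normalized CPM on the vertical axis, for the left and right CBs of WKY (blue) and SHR (red) rats. Points are libraries, lines join the sides of a rat, black bars are the mean and SD of the libraries kept, and the open circle at 0 is the right CB of SHR34, left out of the mean. All filled SHR points sit at or above 7.56 CPM and all WKY points at or below 4.22 CPM.

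The mean over libraries was 2.47 ± 0.595 CPM (SD, n = 6) in WKY left, 2.56 ± 1.02 CPM (SD, n = 6) in WKY right, 16.3 ± 4.92 CPM (SD, n = 6) in SHR left and 13.6 ± 5.32 CPM (SD, n = 5) in SHR right. In rising order the groups were WKY left, WKY right, SHR right and SHR left. The neighbours within a strain differed by less than their SD, and the step lay between the strains. With the sides of a rat averaged, WKY rats had 2.52 ± 0.462 CPM of Mc4r and SHR rats 15.6 ± 4.75 CPM (SD over 6 rats of each strain), a ratio of 6.19. The lowest SHR rat, number 37 with 9.75 CPM, was 3.17 times the highest WKY rat, number 33 with 3.08 CPM. In edgeR's quasi-likelihood fit with side as a covariate, the log2 fold change (LFC) of SHR over WKY was 2.57 with a standard error of 0.188 and a 95% interval of 2.19 to 2.95, which is a fold of 5.94 (4.55 to 7.75). That fit counts the sides of a rat as separate samples, and in limma with the rat as a random block the standard error was 0.246. With all 24 libraries the LFC was 2.43. The LFC over the 23 libraries was the 18th highest of the 14243 genes tested.

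Gpr61 was close to the limit of detection in WKY and higher, though still low, in SHR. In the 6 WKY left CBs it ran from 0.202 to 0.717 CPM with a median of 0.562 CPM, from 2 to 7 counts a library. In the 6 WKY right CBs it ran from 0.199 to 1.90 CPM with a median of 0.559 CPM, from 2 to 18 counts. In 4 of the 12 WKY libraries Gpr61 was at or under 3 counts, the floor used here. The gene had a mean of 6.33 counts over WKY libraries and 26.6 over SHR libraries, so it passed the filter (a mean normalized count above 10 over the 23 libraries) only through SHR.

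In the 6 SHR left CBs, Gpr61 ran from 1.38 to 3.24 CPM with a median of 2.42 CPM, from 15 to 34 counts. In the 5 SHR right CBs it stood at 4.01 CPM in rat 30, 2.45 CPM in rat 31, 3.04 CPM in rat 33, 2.95 CPM in rat 36 and 1.73 CPM in rat 37. The left CB of SHR34 held 24 counts and 2.69 CPM. The strains overlapped slightly by library. The right CB of WKY33, at 1.90 CPM, lay above 3 SHR libraries, so 8 of 11 SHR libraries were above every WKY library and 11 of 12 WKY libraries were below every SHR library. By rat the strains did not overlap for either gene, and 502 of 14243 genes (3.52%) had every SHR rat above every WKY rat.

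**Figure D2:**
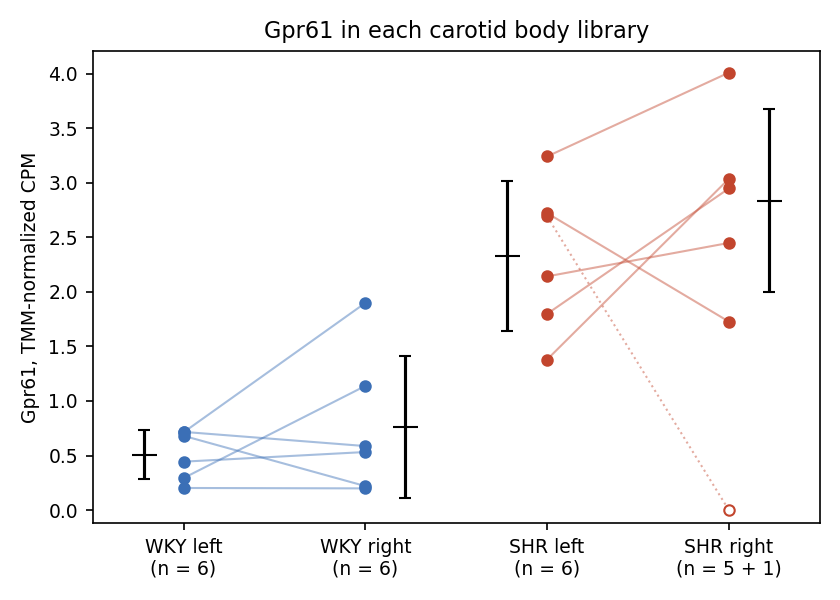
Gpr61 in each library, as TMM-normalized CPM on the vertical axis, for the left and right CBs of WKY (blue) and SHR (red) rats. Points are libraries, lines join the sides of a rat, black bars are the mean and SD of the libraries kept, and the open circle at 0 is the right CB of SHR34, left out of the mean. The highest WKY point, 1.90 CPM, lies above the lowest SHR points.

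The mean over libraries was 0.508 ± 0.228 CPM (SD, n = 6) in WKY left, 0.762 ± 0.653 CPM (SD, n = 6) in WKY right, 2.33 ± 0.684 CPM (SD, n = 6) in SHR left and 2.84 ± 0.838 CPM (SD, n = 5) in SHR right. In rising order the groups were WKY left, WKY right, SHR left and SHR right, and the neighbours within a strain differed by less than the larger of their SDs. With the sides averaged, WKY rats had 0.635 ± 0.375 CPM of Gpr61 and SHR rats 2.57 ± 0.547 CPM (SD over 6 rats of each strain), a ratio of 4.05. The lowest SHR rat, number 33 with 2.21 CPM, was 1.69 times the highest WKY rat, number 33 with 1.31 CPM. The LFC was 2.03 with a standard error of 0.285 and a 95% interval of 1.44 to 2.61, a fold of 4.07 (2.72 to 6.10), the 33rd highest of the genes tested. In limma with the rat as a random block the standard error was 0.309. With all 24 libraries the LFC was 1.89. In all, 33 of the 14243 genes (0.232%) were called higher in SHR with an LFC of at least 2, and nothing is read from this for the receptors.

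The spread between libraries was set beside counting error. For Mc4r in SHR the variance of the counts was 16.9 times the counting variance, with an observed CV of 33.4% against 8.03% from counting. In WKY it was 2.55 times, with 31.7% against 19.9%. For Gpr61 the ratio was 2.29 in SHR, with 29.9% against 19.4%, and 3.60 in WKY, with 76.3% against 39.7%. Pooled over libraries, Mc4r was 2.51 CPM (exact Poisson interval 2.24 to 2.81) in WKY and 14.9 CPM (14.2 to 15.7) in SHR, and Gpr61 was 0.628 CPM (0.494 to 0.786) in WKY and 2.56 CPM (2.28 to 2.87) in SHR. These intervals and the floor cover counting error only. They leave out the spread between libraries and between rats, and reads copied by PCR are not independent molecules. The variance ratio grows with the mean count, which was highest for Mc4r in SHR, and the observed CVs of Mc4r in both strains and of Gpr61 in SHR were close to each other.

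No difference between the left and the right CB was called for either receptor. For Mc4r the right CB was higher in 4 of 6 WKY rats and in 3 of 5 SHR rats. The mean log2 difference, right minus left, was 0.00249 ± 0.730 over the 6 WKY rats and -0.207 ± 0.479 over the 5 SHR rats (mean ± SD), and a two-sided exact sign-flip permutation test gave p = 1 and p = 0.5 (1 and 0.667 after Benjamini-Hochberg adjustment over 4 tests). In edgeR's quasi-likelihood test the LFC was 0.05 in WKY (standard error 0.275, 95% interval -0.53 to 0.63, Benjamini-Hochberg adjusted p = 0.9999) and -0.26 in SHR (standard error 0.252, -0.80 to 0.28, adjusted p = 0.898). The widest single differences were 1.05 in WKY33 and -1.03 in WKY41, which point opposite ways.

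For Gpr61 the right CB was higher in 3 of 6 WKY rats and in 4 of 5 SHR rats. The mean log2 difference was 0.255 ± 0.939 over the WKY rats and 0.312 ± 0.612 over the SHR rats (mean ± SD), and the exact sign-flip permutation test gave p = 0.5 and p = 0.3125 (0.667 adjusted for both). With 6 rats this test cannot give less than 0.03125, and with 5 rats not less than 0.0625, so in SHR it could not pass 0.05. After adjustment over the 4 tests the lowest value that can be reached is 0.0625, so none of them could pass in either strain. In edgeR's quasi-likelihood test the LFC was 0.57 in WKY (standard error 0.531, -0.55 to 1.69, adjusted p = 0.9999) and 0.29 in SHR (standard error 0.293, -0.33 to 0.90, adjusted p = 0.900). In WKY the interval reaches an LFC of 1.69, so with 2 to 18 counts a library a side difference up to that size is within the interval. Over all genes, edgeR called 0 of 14243 between sides in WKY and 0 of 14243 in SHR, with 273 and 784 at an unadjusted p under 0.05.

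The side effect did not differ detectably between strains. The interaction, the side effect in SHR minus that in WKY, was -0.31 for Mc4r (standard error 0.377, 95% interval -1.08 to 0.46, adjusted p = 0.99997) and -0.29 for Gpr61 (standard error 0.576, -1.47 to 0.90, adjusted p = 0.99997) in edgeR's quasi-likelihood test. That test called 0 of 14243 genes, with 439 at an unadjusted p under 0.05.

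Mc4r and Gpr61 were not shown to follow each other from rat to rat. Because the strains form separate clusters, no pooled correlation is given. Over the 6 WKY rats Pearson's r of the log2 CPM was 0.270 (exact permutation p = 0.632, adjusted 0.893) and Spearman's rho was 0.371 (exact permutation p = 0.497, adjusted 0.677). Over the 6 SHR rats r was 0.0904 (exact permutation p = 0.893, adjusted 0.893) and rho was 0.314 (exact permutation p = 0.564, adjusted 0.677). Without the 2 rats farthest from the median of Mc4r, r was 0.547 in WKY and -0.0424 in SHR. The SHR rat highest in Gpr61, number 30 with 3.63 CPM, held 13.6 CPM of Mc4r, and the rat highest in Mc4r, number 36 with 21.0 CPM, held 2.37 CPM of Gpr61.

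**Figure D3:**
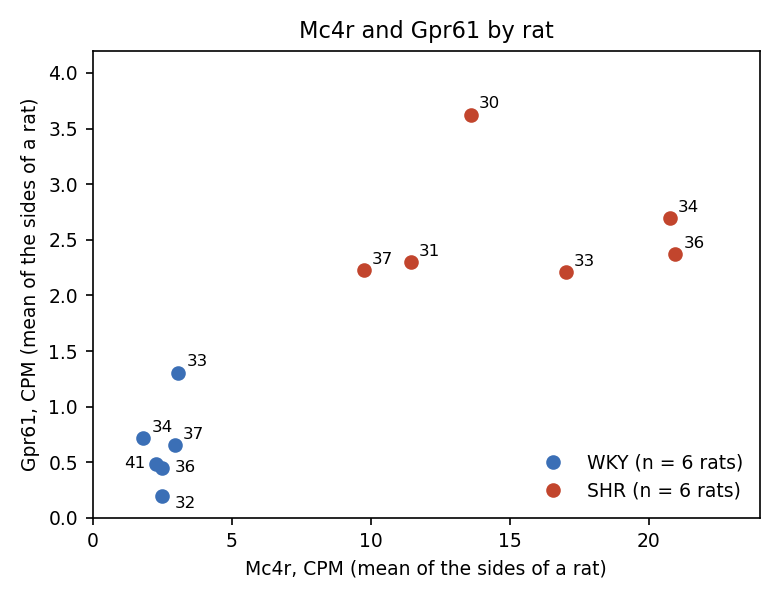
Mc4r (horizontal axis) against Gpr61 (vertical axis) in CPM, each point a rat with its sides averaged, labelled by rat number, WKY in blue and SHR in red. SHR34 rests on its left CB alone. The strains sit apart on both axes, and within SHR the rat highest in Gpr61 (30, 3.63 CPM) is not the rat highest in Mc4r (36, 21.0 CPM).

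Each receptor was also set against the mean log2 CPM of the 5 paired glomus cell markers, over 6 relations in all. For Mc4r, r was 0.787 in WKY (exact permutation p = 0.0486, adjusted 0.292) and 0.457 in SHR (exact permutation p = 0.374, adjusted 0.747), with rho 0.600 (p = 0.242 by exact permutation, adjusted 0.677) and 0.371 (p = 0.497 by exact permutation, adjusted 0.677). Without the 2 rats farthest from the median of the markers r was -0.134 in WKY and 0.255 in SHR, so the value in WKY rests on those rats. For Gpr61, r was 0.0829 in WKY (exact permutation p = 0.801, adjusted 0.893) and -0.556 in SHR (exact permutation p = 0.257, adjusted 0.747), with rho 0.429 (p = 0.419 by exact permutation, adjusted 0.677) and -0.0286 (p = 1 by exact permutation, adjusted 1). Without the 2 farthest rats r was 0.700 in WKY and 0.801 in SHR, so the negative value in SHR rests on those rats. Leaving out 2 of 6 rats leaves few rats over a narrower range of the markers. No relation is therefore read from the values without them, for either receptor. None of the 6 relations passed the threshold after adjustment.

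Markers of cell types could be paired only where the authors' table, made from these same libraries, lists them as higher in SHR. Their direction was therefore fixed beforehand, and their levels and adjusted p-values are given as a description. The summed level of the 5 glomus cell markers was 931 to 1421 CPM in WKY (median 1231) and 1183 to 2081 CPM in SHR (median 1558). By marker, the LFC in edgeR's quasi-likelihood test was 0.36 for Chga (adjusted p = 0.00631) and 0.40 for Chgb (adjusted p = 0.00141), the chromogranins of secretory granules, 0.71 for Dbh, which makes noradrenaline (adjusted p = 0.000631), and 0.72 for the receptor tyrosine kinase Ret (adjusted p = 1.48e-06). Gata3, a transcription factor of the lineage, had an LFC of 0.33 and did not pass (adjusted p = 0.125). The 3 paired neuron markers (Nefh, Prph and Scn9a, of 13 listed) summed to 208 to 299 CPM in WKY and 361 to 477 CPM in SHR. Most of this sum was Prph, at 218 ± 23.9 CPM over the WKY rats and 358 ± 24.8 CPM over the SHR rats (mean ± SD). The 5 paired macrophage markers (of 7 listed) summed to 63.3 to 120 CPM in WKY and 93.1 to 179 CPM in SHR. All 3 neuron markers and all 5 macrophage markers were called in edgeR's quasi-likelihood test, against 64.4% of genes with a symbol. The paired smooth muscle markers Acta2, Tagln and Cnn1 did not pass that test (adjusted p = 0.106, 0.0698 and 0.0907). Neither did Pmp2 of Schwann cells (adjusted p = 0.265), and the paired endothelial, fibroblast and adipocyte markers were called in part. The largest marker LFCs in that test were those of the mast cell and thyroid lists. Cpa3 and Cma1 of mast cells had 2.26 and 2.07 (adjusted p = 0.00140 and 0.000126), at 2.11 and 2.49 CPM in SHR rats. Tg had 3.18 (adjusted p = 0.0424), with 23.4 ± 43.5 CPM over the SHR rats (mean ± SD). Among the libraries kept, Tg reached 219 CPM in SHR and 10.7 CPM in WKY. Relative to the summed glomus cell markers, the difference between strains was 2.21 on the log2 scale for Mc4r and 1.89 for Gpr61. The part of any of these cell types in the result was not tested. Symbols could be paired only for genes that the authors' table lists as higher in SHR, so the markers cannot show the direction of their cell type.

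With the strain means removed, the patterns of the receptors over the 23 libraries were described by Pearson's r of the log2 CPM with each of 14242 other genes. Libraries of a rat share an animal, and all genes of a library share its depth and its mix of cells. Genes with a symbol are only those that the authors' table lists as higher in SHR, so most genes have no name here. The named gene most like Mc4r was Scn3b, a sodium channel beta subunit (r = 0.818, the 2nd highest of all genes). It was followed by Sbf2, a myotubularin-related protein (0.742), Tmem178b (0.738), Layn, a hyaluronan receptor (0.732), and Cnr1, the cannabinoid receptor 1 (0.697), with 28 genes without a symbol above Cnr1. The named genes most like Gpr61 were Slc4a8, a sodium-driven bicarbonate exchanger (0.655), Lrfn1, a synaptic adhesion protein (0.613), A3galt2, a glycosyltransferase (0.587), Slc16a10, an aromatic amino acid transporter (0.580), and Cd300lf, a receptor of myeloid cells (0.564), with 45 genes without a symbol above the last. Between Mc4r and Gpr61 r was 0.207, below the 95th percentile of either gene's values (0.467 for Mc4r and 0.367 for Gpr61).

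By the same measure, Mc4r had r = 0.581 with Chga, 0.551 with Chgb, 0.473 with Ret and 0.329 with Dbh, and 0.402 with the mean of all 5 glomus cell markers. The 95th percentile of its r over single genes was 0.467. Its r was -0.508 with the 3 paired smooth muscle markers, -0.619 with the 4 fibroblast markers and -0.602 with the 4 adipocyte markers. For the other lists it was 0.0571 (endothelial), 0.0150 (neuron), -0.178 (mast cell), -0.256 (macrophage), -0.295 (thyroid) and -0.311 (Schwann cell). Gpr61 had r = 0.129 with Chga, 0.0643 with Chgb, 0.0379 with Ret and -0.126 with Dbh, and its r with the 10 marker lists ran from -0.312 (endothelial) to 0.206 (neuron).

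The other genes of the melanocortin pathway could be followed only in small part, since symbols could be paired for 1273 genes. Of 40 others listed (peptide precursor and antagonist, other melanocortin receptors, accessory proteins, G proteins, adenylyl cyclases and targets), 2 were paired. The direction of every list gene was fixed beforehand, because symbols could be paired only for genes that the authors' table, made from these same libraries, lists as higher in SHR. Counts of list genes are therefore set beside the 64.4% of genes with a symbol that were called. Both genes were called in edgeR's quasi-likelihood test, and over all genes tested 10.3% were called higher, 9.65% lower and 20% in either direction. Adcy5, an adenylyl cyclase that makes cAMP, had 65.7 ± 6.54 CPM in WKY rats against 80.7 ± 8.65 CPM in SHR rats (SD over 6 rats of each strain), an LFC of 0.30 (adjusted p = 0.00193). Bdnf, a neurotrophin that acts downstream of the receptor in the hypothalamus, was 1.13 ± 0.305 CPM and 2.45 ± 1.40 CPM (SD, n = 6 rats each), an LFC of 0.93 (adjusted p = 0.0121). With all 24 libraries neither was called. Pomc, Agrp and the other melanocortin receptors were not analysed here.

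Of 56 other peptides, hormones and receptors of energy balance, 14 were paired. Of these, 8 were called higher in SHR and 6 did not pass the test, against 64.4% called among all genes with a symbol. Listed genes that are lower in SHR could not be paired, so the 14 do not show which way the list went as a whole. Among peptides, Prlh, the prolactin-releasing peptide precursor, was 1.60 ± 0.453 CPM in WKY and 4.26 ± 1.62 CPM in SHR (LFC 1.503, edgeR adjusted p = 1.18e-05), and Cartpt, the precursor of the CART peptides that lower food intake, was 17.6 ± 2.86 and 41.9 ± 14.0 CPM (LFC 1.14, adjusted p = 2.00e-06). Among receptors, the secretin receptor Sctr rose from 2.04 ± 0.333 to 4.58 ± 0.446 CPM (LFC 1.16, adjusted p = 6.32e-06). Adrb1, the beta-1 adrenergic receptor, had an LFC of 0.75, Vipr2, a receptor for vasoactive intestinal peptide, 0.74, Cnr1 0.48 and Npy1r, a neuropeptide Y receptor, 0.40. Magel2 had an LFC of 0.67. Adipoq (1.59, standard error 0.712), Hrh3 (0.73), Npw (0.71), Gcgr (0.45), Htr6 (0.36) and Gfral (0.33) did not pass the test. The median LFC of the 14 was 0.72, against 0.41 for all genes with a symbol. Over all genes tested it was 0.0071, but those include genes lower in SHR, so the 2 medians are not a like comparison. With all 24 libraries 4 of the 14 were called, and with the counts of the sides summed per rat 7 were.

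**Figure D4:**
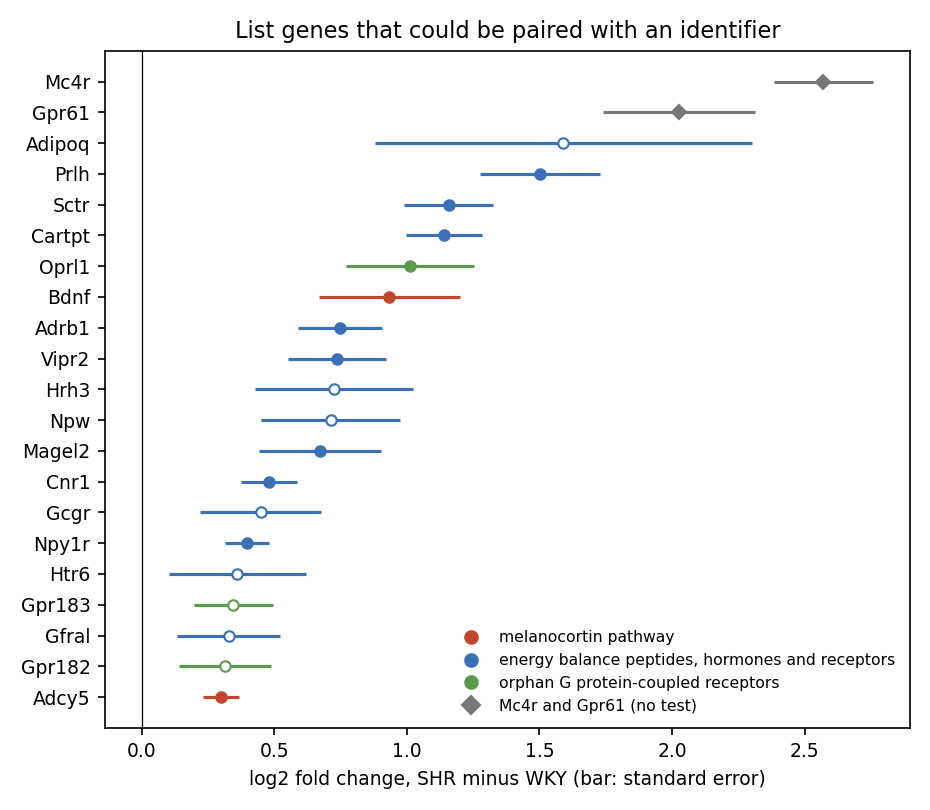
LFC of SHR over WKY (horizontal axis, bars the standard error) for the genes of the 3 lists that could be paired with an identifier. Filled circles passed the test at an adjusted p of 0.05, open circles did not, and grey diamonds are Mc4r and Gpr61, which were picked on this contrast and carry no test. The paired genes other than Mc4r and Gpr61 run from 0.30 (Adcy5) to 1.59 (Adipoq). Only genes that the authors' table lists as higher in SHR could be paired.

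Of 53 other G protein-coupled receptors listed as orphans, 3 were paired and 1 was called, against 64.4% of genes with a symbol. The list also holds receptors first known as orphans whose ligands have since been found, among them Oprl1 and Gpr183. Oprl1, the nociceptin receptor, had 1.11 ± 0.298 CPM in WKY rats against 2.15 ± 0.617 CPM in SHR rats (SD over 6 rats of each strain), an LFC of 1.01 (edgeR adjusted p = 0.00306). Gpr183, a receptor for oxysterols, had an LFC of 0.35 (adjusted p = 0.105) and Gpr182 had 0.31 (adjusted p = 0.214).

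The LFCs of both receptors kept their direction under the settings tried. Both were picked with this difference known and the settings reuse the same libraries, so the direction is no support and only the size is described. Leaving out each rat in turn, with both of its sides, gave 2.43 to 2.68 for Mc4r and 1.85 to 2.33 for Gpr61. The highest value for Gpr61 was without WKY33, whose right CB is the library that overlaps SHR, and the lowest was without WKY32. With the left CBs alone the LFC was 2.72 for Mc4r and 2.17 for Gpr61, and with the right CBs alone it was 2.41 and 1.89.

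**Figure D5:**
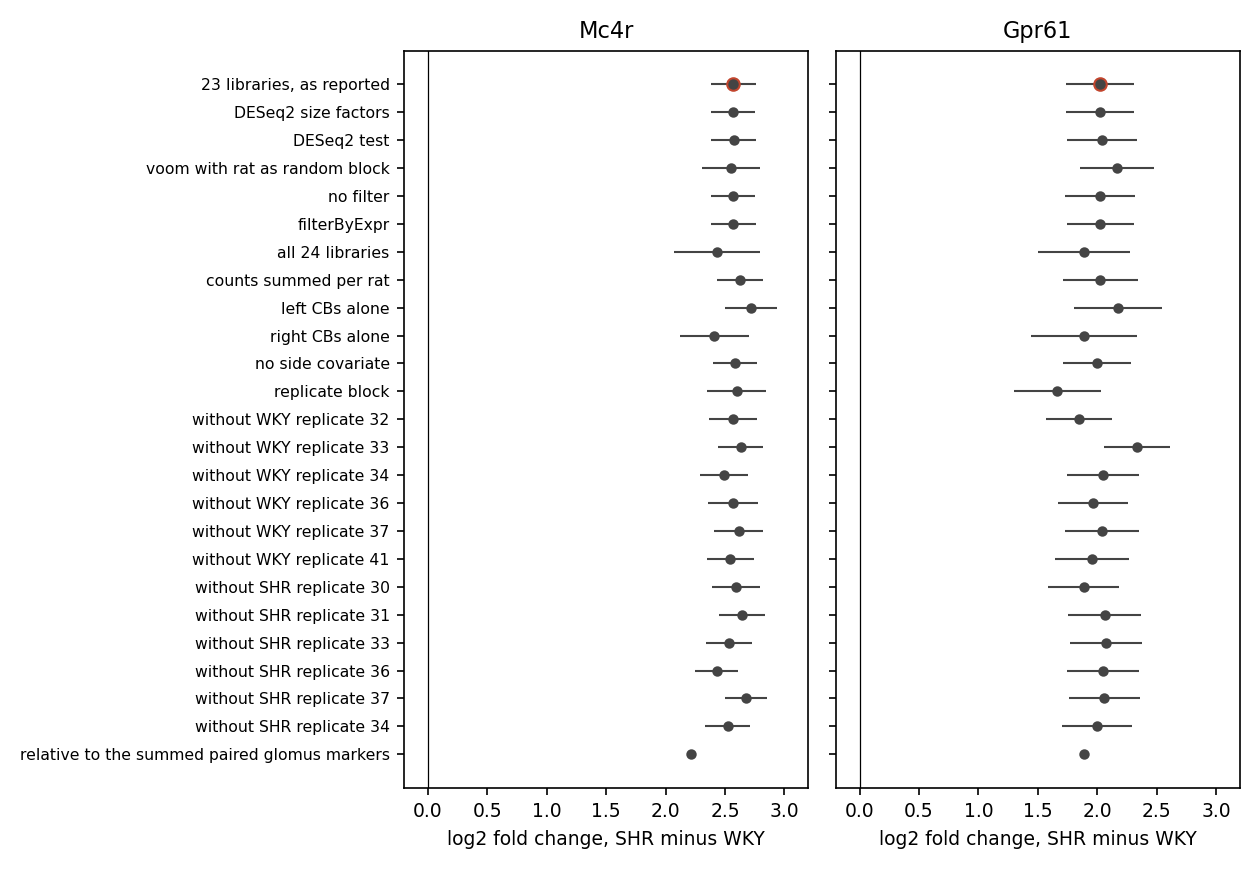
LFC of SHR over WKY for Mc4r (left panel) and Gpr61 (right panel) under each setting, the top row the value reported, with the standard error as a bar where the fit gave one. A replicate is a rat with both sides. Mc4r runs from 2.21 (relative to the summed glomus cell markers) to 2.72 and Gpr61 from 1.66 to 2.33.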

How the data were processed

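Poly-A RNA of left and right CBs was prepared with a stranded kit, paired-end sequenced and deposited by the authors as raw counts per gene, with no normalization. The submitters' processing notes name FastQC, STAR, featureCounts and DESeq2. Versions, genome build and strand setting are not given in the sources used here. From a table of the authors only identifiers, Entrez numbers, symbols and library names were read. Its fold changes and p-values were not used. It names the 23 libraries kept, and its 1391 rows read, all higher in SHR, give 1273 symbols. Promoters were matched to RefSeq (GRCr8) by Entrez number for both genes. Protein sequences were planned and were not analysed here.

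Counts (R 4.3.3) were tested with edgeR 4.0.16's quasi-likelihood test (TMM, robust), with side as a covariate and Benjamini-Hochberg adjustment at 0.05, over genes with a mean normalized count above 10. Side was tested within each strain on the same genes. This gene set was chosen after values were seen, because a filter within WKY gave Gpr61 no value, and that filter is kept as an alternative. Log2 CPM used a prior count of 2. Libraries held 9198341 to 13655419 counts. Rats were the replicates for levels, while libraries entered the fits, so the sides of a rat count as separate samples there. With counts summed per rat, genes past the threshold between strains went from 2844 to 2055. Alternatives used DESeq2 1.42.0, limma 3.58.1, other filters, sums per rat, a block and leaving out each rat. On simulated counts for SHR against WKY, 94.8% of genes changed by 1 on the log2 scale were recovered, with 6 false calls among 14167 genes. For right minus left it was 79.2% in WKY (13 false calls among 14138 genes) and 78.1% in SHR (8 among 14157), and for the interaction 67.7% (5 among 14177). The changed genes were drawn at random from all genes tested, so these shares do not describe a gene with counts as low as Gpr61 in WKY. Libraries were simulated independently, so the false calls do not cover sides that share a rat. Figures used Python with pandas and matplotlib.

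Left and right CBs of a rat carry the rat's number. The correlation of their deviations over 11 pairs ran from -0.0331 to 0.259 (median 0.115), and the pairing comes from the shared animal.

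The genes and lists were chosen with earlier results of these data known. Genes were named as follows. Mc4r and Gpr61 in full, every list gene paired with an identifier, and the 5 genes with a symbol most like each receptor. Chga, Chgb, Dbh and Ret were named as glomus cell markers. Other marker genes were named where cell types or the right CB of SHR34 are described. Leaving that library out follows the authors' table. Of the glomus cell markers listed, 1 is not reported here and was taken out of the marker sums and means after values were seen.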

Additional observations from a re-analysis of the deposited data

Results flagged for a closer look

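Gpr61 in SHR rats, sides averaged, held 1 rat far from the others. SHR30 stood at 3.63 CPM, and the other 5 SHR rats at 2.21 to 2.69 CPM, so the gap to the nearest rat was 0.659 of the group's range. Both sides of SHR30 were the highest of their group, at 3.24 CPM on the left (31 counts) and 4.01 CPM on the right (40 counts). Without SHR30 the LFC of SHR over WKY was 1.89 against 2.03. A gap this wide was looked for in 14 groups of values, and chance alone gives such a gap in about 5% of groups. Mc4r in SHR30 was 13.6 CPM, inside the range of the SHR rats.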

How the results depend on the processing

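The LFC of SHR over WKY kept its direction under all 24 alternatives, at 2.21 to 2.72 for Mc4r and 1.66 to 2.33 for Gpr61. The receptors were picked with this difference known, so nothing is read from the direction. The 2.21 is the difference relative to the summed glomus cell markers, which was not planned and has no standard error. Those markers could be paired only because the authors' table lists them as higher in SHR. The lowest Mc4r value of the other settings was 2.41, with the right CBs alone. The rat number shared by 4 rats of each strain does not pair them (correlations of deviations -0.226 to 0.0540), and with it as a replicate block the LFC was 2.60 for Mc4r and 1.66 for Gpr61 on those rats alone. With the rat as a replicate block, right minus left was 0.01 (WKY) and -0.20 (SHR) for Mc4r and 0.45 and 0.33 for Gpr61, the interaction was -0.22 and -0.12, and no call changed. With all 24 libraries the genes past the threshold fell from 2844 to 1490, the melanocortin genes from 2 to 0 and the energy balance genes from 8 to 4. The cause was not tested. Leaving out a rat, no side, interaction or correlation value was called, but signs turned. Mc4r right minus left in WKY ran from -0.20 (without WKY33) to 0.26, the Gpr61 interaction from -0.57 to 0.0866 (without WKY33), and r of Mc4r with Gpr61 from -0.137 (without WKY33) to 0.549 in WKY and from -0.169 (without SHR37) to 0.492 (without SHR30) in SHR. In SHR this r was -0.565 with the left CBs alone and 0.887 with all 24 libraries, where SHR34's right CB is at 0 for both genes (adjusted p = 0.594 and 0.167 by exact permutation). The filter within each strain, added after values were seen, gave Gpr61 no value in WKY and 0.29 in SHR. Gpr61 in WKY, with 2 to 18 counts a library, is where depth limits the values most.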
